A study of Mus musculus with 6 samples.

Results

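TNF superfamily ligands and receptors are the signals and docking proteins through which T cells help, restrain or kill other cells, and their transcripts were followed in resting mouse CD4 T cells treated with vasoactive intestinal peptide (VIP). The members were taken by name from the array annotation: every non-control probe for a gene whose name starts with Tnfsf or Tnfrsf, plus Tnf, Lta, Ltb, Ltbr, Cd40, Cd40lg, Cd27, Cd70, Fas, Fasl, Eda and Eda2r. This rule found 61 probes for 43 of the 28632 gene names on the array. After filters on signal, 39 of the 43 genes were tested among 19225 genes in all, 33 of them on 6 arrays and 6 on 5 arrays. The others were Eda, Tnfsf12 and Tnfsf18, whose probes were not well above background on enough arrays, and the joint transcript Tnfsf12-tnfsf13, which was measured on 3 arrays.

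The VIP group held 6 samples of splenic CD4 T cells from C57BL/6J mice exposed to VIP, a neuropeptide that raises cyclic AMP in lymphocytes. The untreated group held 6 samples of the same kind of cells without VIP. Both came from males and females aged 6 to 32 weeks, with 5 to 10 spleens pooled for each sample, and the cells were selected with magnetic beads against CD4. Each of 6 Agilent 2-colour arrays carried 1 VIP sample and 1 untreated sample, with VIP in Cy5 on replicates 1, 3 and 5 and in Cy3 on replicates 2, 4 and 6. The labels call the replicates biological but do not say whether the samples of an array came from the same spleens. How much VIP was given, and for how long, is not stated in the sources used here.

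Ligands of this superfamily are mostly trimers on the cell surface or cut from it, and each trimer gathers receptor chains. The receptors signal through TRAF adaptors to NF-kappaB and MAP kinases or, where they carry a death domain, to caspases. Resting CD4 T cells keep some receptors on their surface at all times, while many ligands appear on them only after antigen stimulation.

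Of the 39 tested genes, 2 rose with VIP (Tnfsf11 and Tnfrsf1b), against 1.72% of all genes called higher, and 2 fell (Tnfrsf19 and Ltb), against 1.37% of all genes called lower. Together they make 10.3% of the tested members. Calls rest on limma's moderated test with Benjamini-Hochberg adjustment over all 19225 genes, at an adjusted p under 0.05. At an unadjusted p under 0.05 there were 14 members (35.9%), 8 higher and 6 lower with VIP, against 16.7% of all genes. The members were chosen with earlier results of these data known, so these shares are a description and were not tested. The families did not move in a single direction. Their median log2 ratio of VIP over untreated was 0.0023, with 20 genes above 0 and 19 below, and the median over all genes was -0.0048. The median size of the fitted log2 ratio, sign left aside, was 0.084 for the members and 0.048 for all genes, and the median standard errors were 0.052 and 0.048. In every one of the 39 genes the range of levels over the VIP samples overlapped that over the untreated samples, so the calls rest on the ratio within each array. Shares over all genes are not given here for such overlap or for the unpaired fit that follows. With the 12 channels taken as unpaired samples no member was called, and each of the 4 had an adjusted p of 1 by limma. In such bulk samples, fewer cells of a type and less RNA per cell cannot be told apart.

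**Figure D1:**
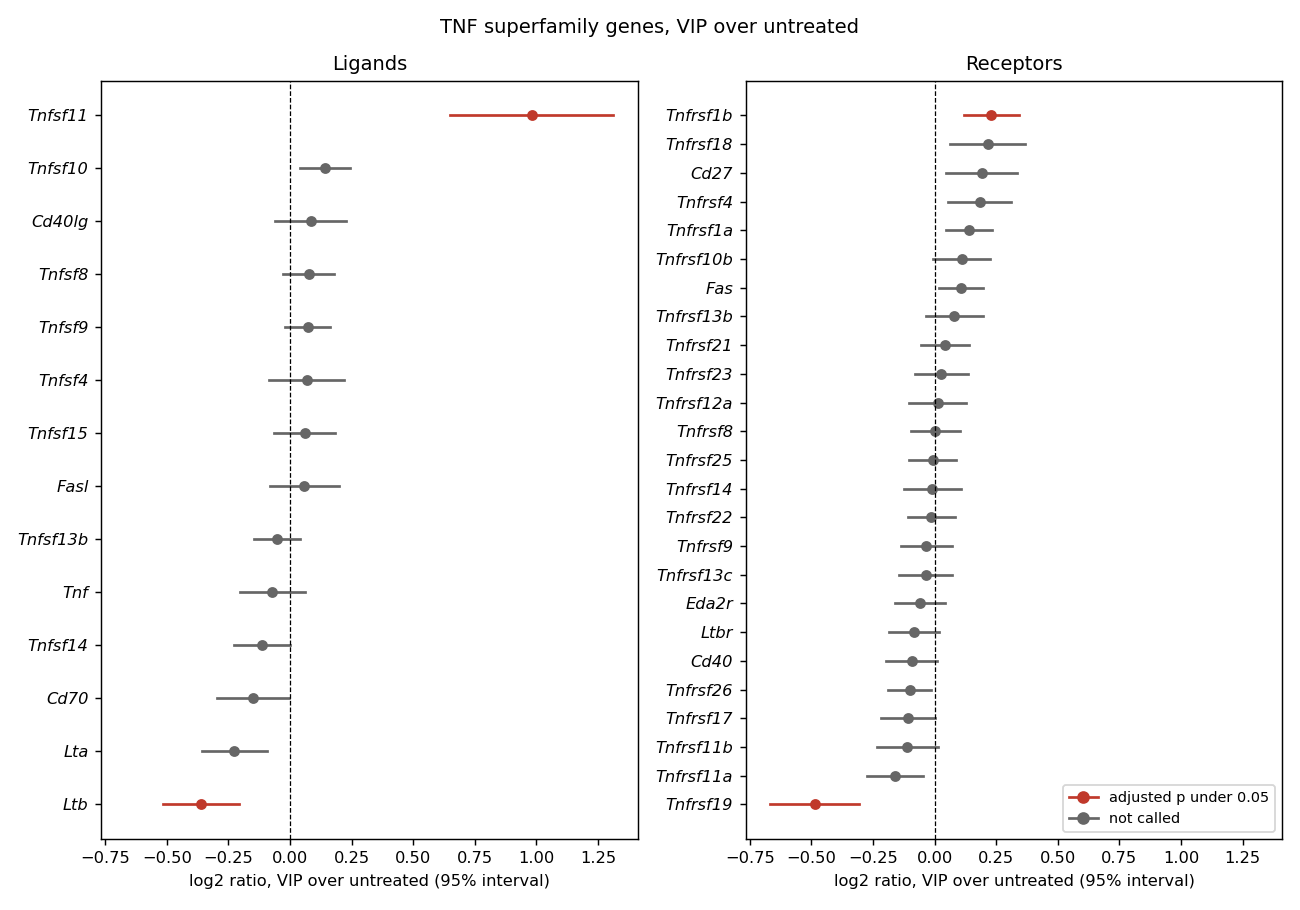
Fitted log2 ratio of VIP over untreated for the 14 tested ligand genes (left) and 25 tested receptor genes (right), with 95% intervals as bars and genes called at an adjusted p under 0.05 in red. Tnfsf11 lies at 0.98 and Tnfrsf1b at 0.23, Ltb at -0.36 and Tnfrsf19 at -0.49, and the other genes lie between -0.23 and 0.21.

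Levels of cell type markers stood as follows. All 8 T cell markers were well above background on every array, and none was called (log2 ratio -0.15 to 0.08, median 0.0083). Cd4 stood at 0.01, and the lowest were Cd3g at -0.15 (adjusted p = 0.103 by limma) and Cd3d at -0.13 (0.116). Markers of other spleen cells were also detected, and 1 was called: of 4 plasma cell markers Xbp1, a transcription factor of secretory cells, rose by 0.31 (adjusted p = 0.00271 by limma), while the other plasma cell markers stood between -0.18 and -0.04. The plasma cell list summed to between 7120 and 11900 in the VIP samples and between 7560 and 12100 in the untreated samples. Of 8 tested B cell markers none was called (-0.12 to 0.05), and their summed level ran from 8670 to 17100 in the VIP samples and from 9770 to 18000 in the untreated samples. None of 8 macrophage markers was called (-0.08 to 0.18), and the 7 measured on every array summed to between 1330 and 2310 in the VIP samples and between 1240 and 2280 in the untreated samples. Both CD8 T cell markers stood above 0 (0.05 and 0.13), with sums of 4710 to 8930 in the VIP samples and 3900 to 7190 in the untreated samples. The 5 NK cell markers (-0.08 to 0.04) summed to between 3770 and 4540 in the VIP samples and between 3910 and 4660 in the untreated samples. No tested marker of CD8 T, NK, dendritic, neutrophil, erythroid or platelet cells was called. The part of such cells in the results below was not tested. On replicates 3 and 6 the VIP and untreated samples differed more than 2-fold in sex-linked transcripts. The arrays were scanned on 3 slides, each holding 2 arrays of opposite dye orientation.

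The sequence upstream of the start is given for 1 gene that rose and 1 that fell, to show how their promoters are built. Both are RefSeq promoters of GRCm38.p6, 250 bases ending just before the annotated start and read 5′ to 3′ on the gene's strand. The Tnfsf11 promoter lies at chr14:78308044-78308293 on the minus strand and the Ltb promoter at chr17:35194257-35194506 on the plus strand. Capitals mark the TATAA letters at position -30 of Tnfsf11 and a kappaB motif, a sequence of the type that NF-kappaB proteins bind, at position -87 of Ltb.
Tnfsf11: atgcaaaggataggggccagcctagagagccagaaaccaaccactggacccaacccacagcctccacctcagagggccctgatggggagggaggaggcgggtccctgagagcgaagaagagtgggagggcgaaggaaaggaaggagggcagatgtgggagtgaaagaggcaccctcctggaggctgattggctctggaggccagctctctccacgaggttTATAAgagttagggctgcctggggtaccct
Ltb: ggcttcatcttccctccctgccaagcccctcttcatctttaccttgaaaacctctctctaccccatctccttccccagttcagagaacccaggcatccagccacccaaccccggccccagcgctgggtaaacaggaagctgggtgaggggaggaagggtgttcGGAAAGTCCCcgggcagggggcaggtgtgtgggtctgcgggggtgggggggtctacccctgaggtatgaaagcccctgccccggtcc
RefSeq entries were found for 32 of the 43 genes, with 36 starts. The full cyclic AMP response element TGACGTCA was in none of the 36 windows and in 1.55% of 32851 windows of the same length. Its core TGACG, searched on both strands and contained in the full element, was in 5 of the 36 (Fasl, Tnfrsf11a, Tnfrsf23, Tnfrsf25 and Tnfsf10) and in 17.8% of all windows. TATAA on the gene's strand was in 9 of the 36 and in 5255 of the 32851 windows. The kappaB motif, on both strands, was in 4 of the 36 (Ltb, Tnfrsf25, Tnfrsf8 and Tnfrsf9) and in 7.25% of all windows. Tnfrsf1b and both annotated starts of Tnfrsf19 held none of these letters in the window. A match is a description of the letters and not a measured binding site.

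Ligands by which T cells help or costimulate other cells had 7 tested genes, of which 1 rose and none fell, with a median log2 ratio of 0.07. Tnfsf11 encodes RANKL, the osteoclast-inducing cytokine that also supports dendritic cells and lymph node formation. Its log2 ratio of VIP over untreated was 0.82, 1.05, -0.34, 1.62, 1.03 and 1.70 on replicates 1 to 6. It was thus higher with VIP on 5 of 6 arrays, and replicate 3 was the exception. These ratios still hold the fitted dye effect of the probe, -0.48, which the model takes out. With it taken out, replicate 3 stood at 0.14 and this probe of Tnfsf11 was higher with VIP on 6 of 6 arrays. The dye effects here and below were fitted to these same 6 arrays, so such counts are not a separate check of a call. The normalised log2 intensity had a lowest, median and highest value of 9.497, 11.16 and 11.58 in the VIP samples and of 9.25, 9.90 and 10.35 in the untreated samples. The fitted rise was 1.97-fold (log2 0.98 ± 0.15 SE, n = 6, 95% interval 0.65 to 1.31, adjusted p = 0.00707 by limma). It was the largest fitted change among the 39 genes. Within the 3 slides the mean log2 ratio was 0.93, 0.64 and 1.37. Left out 1 at a time, the arrays gave values between 0.85 and 1.19 with adjusted p between 0.000155 and 0.029, and the 4 arrays matched for sex-linked transcripts gave 1.13. The call was lost without the dye term (adjusted p = 0.118 by limma), with the processed signals that the scanner software wrote (0.117) and in the authors' deposited table (0.110), at log2 values of 0.98 to 1.02.

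The Tnfsf11 probe lies on chromosome 14 from 78677959 to 78678018 on the minus strand in mm9, the build of the array files. A second, dimmer probe at 78678180 to 78678239 gave 0.88, 0.47, -0.20, 1.11, 1.12 and 0.65 on replicates 1 to 6. Its fitted value was 0.67 ± 0.14 (SE, n = 6, adjusted p = 0.0314 by limma over all probes). Before the dye effect was taken out, both probes were below 0 on replicate 3 only. The fitted dye effect of the second probe was -0.07, smaller in size than its -0.20 on replicate 3. With it taken out, the second probe therefore stayed below 0 on replicate 3.

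None of the other 6 tested ligands of T cell help was called. Cd70, the ligand of Cd27, stood at -0.15 (95% interval -0.30 to -0.0026, adjusted p = 0.289 by limma), lower with VIP on 4 of 6 arrays. Tnfsf14, which binds Tnfrsf14 and the lymphotoxin beta receptor, stood at -0.11. Cd40lg, the signal by which T cells license B cells and dendritic cells through Cd40, stood at 0.08 with an interval from -0.06 to 0.23. Its receptor gene Cd40 stood at -0.09. Tnfsf8, Tnfsf9 and Tnfsf4, ligands of the costimulatory receptors Tnfrsf8, Tnfrsf9 and Tnfrsf4, had fitted log2 ratios between 0.07 and 0.08. Among these 6, Tnfsf4 spread most over the arrays before the dye effect was taken out, with -0.46 on replicate 3 and 0.62 on replicate 6. These arrays have opposite dye orientations, and their samples differed in sex-linked transcripts. With the fitted dye effect of -0.28 taken out, the values were -0.18 and 0.34. The reason for the spread was not tested.

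**Figure D2:**
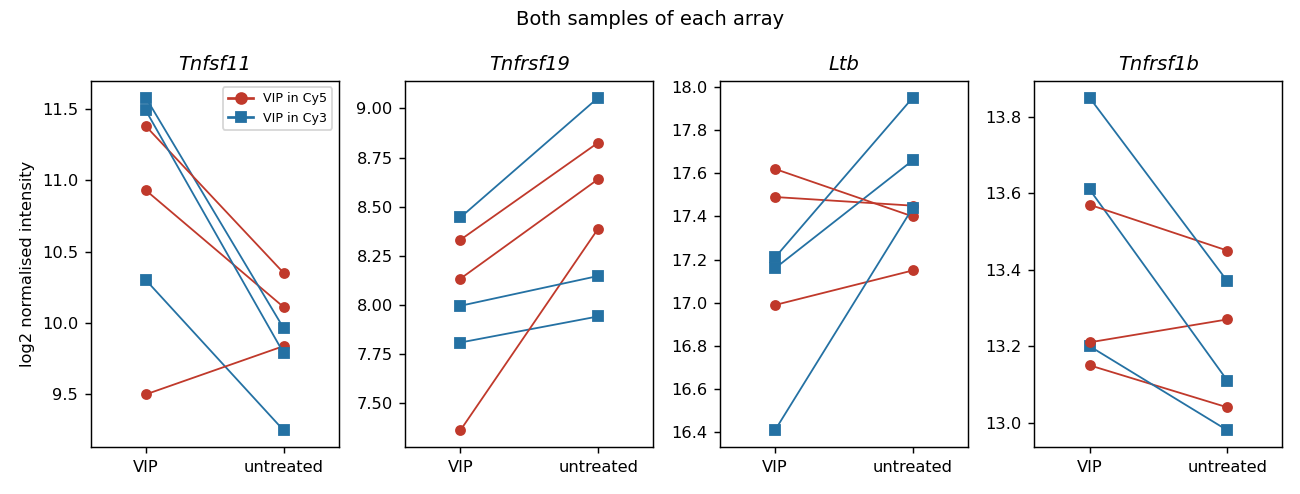
Normalised log2 intensity of the VIP sample and the untreated sample of each array for the 4 called genes, joined by array, with VIP in Cy5 as circles (replicates 1, 3 and 5) and VIP in Cy3 as squares (replicates 2, 4 and 6). Tnfsf11 was higher in the VIP sample on 5 of 6 arrays, and Tnfrsf19 was lower on 6 of 6. The levels still hold the dye effect of each probe.

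Among 6 tested cytotoxic and inflammatory ligands 1 fell and none rose, with a median of -0.0068. Ltb encodes lymphotoxin beta, which anchors lymphotoxin alpha in the membrane and signals to stromal cells of lymphoid organs through Ltbr. Its log2 ratio was 0.03, -0.74, -0.16, -0.50, 0.22 and -1.03 on replicates 1 to 6, lower with VIP on 4 of 6 arrays. The 3 arrays with VIP in Cy3 gave the 3 lowest values. The normalised log2 intensity ran from 16.41 through a median of 17.19 to 17.62 in the VIP samples, against 17.15, 17.45 and 17.95 in the untreated samples, and no spot was saturated. The fitted dye effect of this probe was 0.39, which the model takes out. With it taken out, Ltb was lower with VIP on 6 of 6 arrays.

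The fitted fall of Ltb was 1.28-fold (log2 -0.36 ± 0.069 SE, n = 6, 95% interval -0.52 to -0.21, adjusted p = 0.0198 by limma). Each slide pairs both dye orientations, and the slide means were -0.35, -0.33 and -0.41. The call was lost without replicate 1 (adjusted p = 0.0596 by limma), replicate 2 (0.0651), replicate 3 (0.0583) or replicate 6 (0.0546), at log2 values from -0.37 to -0.29. It was lost as well on the 4 arrays matched for sex-linked transcripts (log2 -0.25, 0.0897). The call was also lost without the dye term (0.458), with the processed signals (0.162) and in the authors' deposited table (0.156). The probe lies on chromosome 17 from 35333097 to 35333156.

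Lta, lymphotoxin alpha, is the partner of Ltb in the membrane trimer and is also secreted. Its log2 ratio was below 0 on 6 of 6 arrays, at -0.23, -0.03, -0.20, -0.47, -0.35 and -0.07. The fitted value of -0.23 ± 0.059 (SE, n = 6) did not pass the threshold (adjusted p = 0.0725 by limma), and over all alternatives to the processing its adjusted p ran from 0.0549 to 1. Tnf, the founding ligand, lies between them on the chromosome and stood at -0.07 with an interval from -0.20 to 0.06. The probes of Ltb, Tnf and Lta lie within 7.24 kb on chromosome 17. Ltbr, the receptor of the membrane lymphotoxin trimer, stood at -0.08 (adjusted p = 0.407 by limma).

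Tnfsf10 encodes TRAIL, a death-inducing ligand, and its log2 ratio was 0.06, 0.35, -0.03, 0.10, 0.11 and 0.27 on replicates 1 to 6. The fitted value was 0.14 ± 0.046 (SE, n = 6, adjusted p = 0.140 by limma). Fasl, the killing ligand of Fas, stood at 0.06, with -0.30 on replicate 3 and between 0.01 and 0.22 on the other arrays. Tnfsf15, a ligand of Tnfrsf25, stood at 0.06 over 5 arrays. Tnfsf13b, which encodes the B cell survival factor BAFF, was the only tested ligand of its group and stood at -0.05 (interval -0.15 to 0.04).

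**Figure D3:**
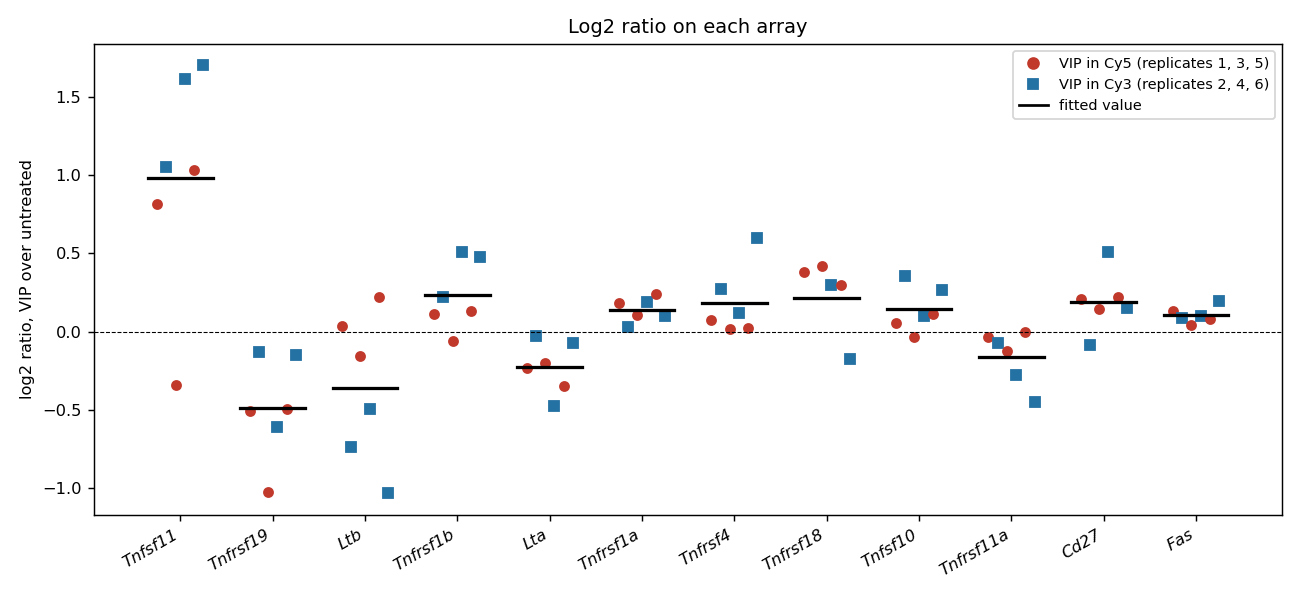
Log2 ratio of VIP over untreated on each array for the 12 genes of lowest p, with VIP in Cy5 as circles, VIP in Cy3 as squares and the fitted value as a bar. The ratios on single arrays still hold the dye effect of each probe. For Ltb the 3 squares lie below the 3 circles, and for Tnfsf11 the circle of replicate 3 lies below 0. Tnfrsf19, Lta and Tnfrsf11a lie below 0 on all 6 arrays.

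Costimulatory receptors of T cells had 8 tested genes, of which 1 rose and none fell, with a median of 0.09 and a range from -0.03 to 0.23. Tnfrsf1b encodes the second TNF receptor, which lacks a death domain and is prominent on regulatory and activated T cells. Its log2 ratio was 0.11, 0.22, -0.06, 0.51, 0.13 and 0.48 on replicates 1 to 6, higher with VIP on 5 of 6 arrays. The normalised log2 intensity ran from 13.15 through a median of 13.39 to 13.85 in the VIP samples, against 12.98, 13.19 and 13.45 in the untreated samples. The fitted rise was 1.17-fold (log2 0.23 ± 0.051 SE, n = 6, 95% interval 0.12 to 0.34, adjusted p = 0.0368 by limma). As with Tnfsf11, replicate 3 was the only array below 0 before the dye effect was taken out. With the fitted dye effect of -0.17 taken out, replicate 3 stood at 0.11 and Tnfrsf1b was higher with VIP on 6 of 6 arrays.

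The rise of Tnfrsf1b was small and sat close to the threshold. Slide means were 0.17, 0.22 and 0.30. Its call was lost without replicate 1 (adjusted p = 0.124 by limma), replicate 4 (0.0936), replicate 5 (0.144) or replicate 6 (0.114), and on the 4 arrays matched for those transcripts (0.0863). It was lost as well with median centring (0.0972), a normexp offset of 16 (0.0832), the processed signals, the authors' deposited table or no dye term, while the fitted value stayed between 0.20 and 0.28 under every setting tried. The probe, on chromosome 4 from 144804304 to 144804363, is printed in 10 spots on each array, and the median SD of the log2 ratio over those spots within an array was 0.04. A second Tnfrsf1b probe gave 0.14, 0.25, 0.18, 0.21, 0.15 and 0.26 on replicates 1 to 6. It was above 0 on 6 of 6 arrays, with a fitted value of 0.20 ± 0.039 (SE, n = 6, adjusted p = 0.0218 by limma over all probes).

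The neighbouring genes Tnfrsf4 and Tnfrsf18 encode OX40 and GITR, receptors that regulatory T cells carry at rest. Their probes lie within 12.3 kb on chromosome 4. Tnfrsf4 had log2 ratios of 0.08, 0.27, 0.02, 0.12, 0.02 and 0.60 on replicates 1 to 6, above 0 on every array, with a fitted value of 0.18 ± 0.058 (SE, n = 6, adjusted p = 0.131 by limma). With the fitted dye effect taken out, replicate 4 stood at -0.03. Tnfrsf18 had 0.38, 0.42, 0.30, 0.30 and -0.17 on replicates 1, 3, 4, 5 and 6, with replicate 2 missing because its spot was an outlier. Its fitted value was 0.21 ± 0.068 (SE, n = 5, adjusted p = 0.139 by limma). Without replicate 6, Tnfrsf18 stood at 0.33 over 4 arrays. On the arrays matched for sex-linked transcripts it stood at 0.32 over the 3 that measured it. Each of these fits gained a call, which rests on replicate 4 as the only array with VIP in Cy3. It stood at 0.10 without replicate 4 and at 0.09 with median centring, and was not called in either.

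Cd27, a receptor that supports survival of naive and memory T cells, had 0.21, -0.08, 0.15, 0.51, 0.22 and 0.15 on replicates 1 to 6. Its fitted value of 0.19 ± 0.065 (SE, n = 6) was not called (adjusted p = 0.164 by limma), and neither was its ligand Cd70. The other costimulatory receptors lay nearer to 0: Tnfrsf9 at -0.03, Tnfrsf14 at -0.01, Tnfrsf25 at -0.01 and Tnfrsf8 at 0.0023. Their 95% intervals lay within -0.14 and 0.11.

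Of the receptors with a death domain, Tnfrsf25 is given above at -0.01, and the 4 others grouped here had fitted values between 0.04 and 0.14. None was called. Tnfrsf1a, the TNF receptor through which caspases and NF-kappaB are engaged, had 0.18, 0.03, 0.11, 0.19, 0.24 and 0.10 on replicates 1 to 6. It was higher with VIP on 6 of 6 arrays, with a fitted value of 0.14 ± 0.042 (SE, n = 6, adjusted p = 0.113 by limma). The Tnfrsf1a probe is printed in 10 spots, and the median SD of the log2 ratio within an array was 0.07. Fas, the death receptor that limits activated T cells, had 0.13, 0.09, 0.04, 0.10, 0.08 and 0.20, with a fitted value of 0.11 ± 0.040 (SE, n = 6, adjusted p = 0.211 by limma). A second Fas probe gave -0.10 ± 0.11, so the direction of Fas differed between its probes, and their mean stood at 0.0042 (adjusted p = 0.984 by limma). Tnfrsf10b, the mouse receptor of TRAIL, stood at 0.11, and Tnfrsf21, a receptor that restrains T helper responses, at 0.04.

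The 6 receptors of B cells and antigen presenting cells had a median of -0.09, and none was called. Tnfrsf11a encodes RANK, the receptor of Tnfsf11, and had log2 ratios of -0.03, -0.07, -0.12, -0.27, -0.0048 and -0.45 on replicates 1 to 6. It lay below 0 on every array while its ligand lay above 0 on 5 of 6, before the dye effects were taken out. With the fitted dye effects taken out, the brighter Tnfsf11 probe lay above 0 on 6 of 6, and Tnfrsf11a lay below 0 except on replicate 2 (0.03). The fitted value was -0.16 ± 0.052 (SE, n = 6, adjusted p = 0.141 by limma), and a second probe gave -0.03 ± 0.045. With the mean of both probes it stood at -0.10, and it stood at -0.10 on the 4 arrays matched for sex-linked transcripts as well. Of the B cell receptors for BAFF and its relative, Tnfrsf17 stood at -0.11, Tnfrsf13b at 0.08 and Tnfrsf13c, the main BAFF receptor of naive B cells, at -0.04. The Tnfrsf17 probe was near background, well above it on 3 arrays with VIP and on 6 untreated. The 8 tested B cell markers had a median of -0.04.

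The 4 decoy and soluble receptors stood between -0.11 and 0.03, with none called. Tnfrsf11b encodes osteoprotegerin, the soluble decoy of RANKL, and stood at -0.11 over 5 arrays (interval -0.24 to 0.01). Its probe was near background, well above it on 3 arrays with VIP and on 1 untreated. Tnfrsf22 and Tnfrsf23, which encode mouse decoys for TRAIL, stood at -0.01 and 0.03. Their relative Tnfrsf26, with a probe within 60.5 kb of them on chromosome 7, stood at -0.10.

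Of 3 tested receptors known mainly from epithelial, neural and wounded tissue, 1 fell. Tnfrsf19 encodes TROY, a receptor best known from embryonic skin, hair follicles and the nervous system. Its log2 ratio was -0.51, -0.13, -1.03, -0.61, -0.49 and -0.15 on replicates 1 to 6. It was the only called member with the same sign on all 6 arrays before the dye effect was taken out. With the fitted dye effect taken out, the probe standing for each called member kept 1 sign on all 6 arrays. That effect was fitted to the same arrays as the calls, so this is not separate evidence for them. The normalised log2 intensity ran from 7.36 through a median of 8.06 to 8.45 in the VIP samples, against 7.94, 8.51 and 9.05 in the untreated samples.

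The fitted fall of Tnfrsf19 was 1.402-fold (log2 -0.49 ± 0.082 SE, n = 6, 95% interval -0.67 to -0.31, adjusted p = 0.0108 by limma). Slide means were -0.32, -0.82 and -0.32, so the second slide had the larger fall. With each array left out in turn the value lay between -0.53 and -0.40 and the adjusted p between 0.0195 and 0.0287. The call was lost with the processed signals (log2 -0.65, adjusted p = 0.135 by limma), in the authors' deposited table (0.129) and without the dye term (0.101). The probe lies on chromosome 14 from 61582948 to 61583007 and was well above background on 6 of 6 arrays in both treatments. A second Tnfrsf19 probe was near background, on 1 array well above it with VIP and on 2 untreated, and was not tested. Its log2 ratios were -0.13, 0.01, -0.0082, -0.25, -0.21 and -0.09. Eda2r, a receptor of ectodysplasin, stood at -0.06 over 5 arrays, and Tnfrsf12a, the receptor of the wound-response ligand TWEAK, at 0.01.

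**Figure D4:**
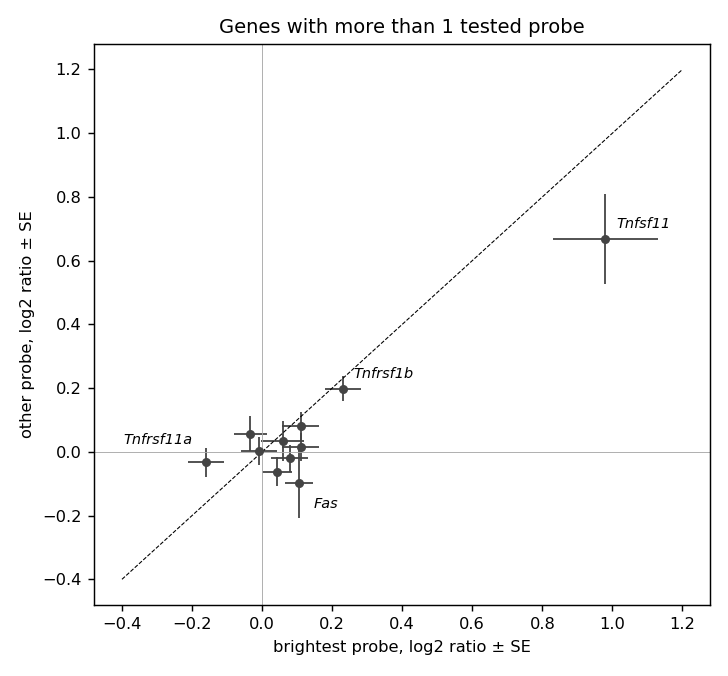
Fitted log2 ratio of VIP over untreated for the brightest probe of a gene (horizontal) against each other tested probe of that gene (vertical), with bars of 1 SE and the dashed line of equality, for the 10 genes with several tested probes. Both probes of Tnfsf11 and of Tnfrsf1b lie above 0, while those of Fas lie on opposite sides of 0.

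Other tested probes existed for 10 member genes. Of 11 such probes, 6 had the same sign as the brightest probe of their gene and 5 the opposite sign. Opposite signs were seen for Fas, Tnfrsf13b, Tnfrsf14, Tnfrsf21 and Tnfrsf9, none of which was called.

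Neighbouring members stood on the same side of 0 in some groups and on opposite sides in others. There were 8 groups of members with probes less than 100 kb apart in mm9, with 20 genes in all. Ltb fell and Lta and Tnf had values below 0, and Tnfrsf4 and Tnfrsf18 both had values above 0. On chromosome 6, Cd27 and Tnfrsf1a stood at 0.19 and 0.14 while Ltbr between them stood at -0.08. On chromosome 4, Tnfrsf1b rose while Tnfrsf8, within 78.3 kb, stood at 0.0023. On chromosome 17, Tnfsf9 stood at 0.07, Cd70 at -0.15 and Tnfsf14 at -0.11.

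Downstream of the receptors, a list of 40 adaptors, ubiquitin enzymes, kinases and NF-kappaB genes was tested in full. Of these 1 rose and none fell, with a median log2 ratio of -0.0028 and 19 genes above 0. The shares called among all genes were 1.72% higher and 1.37% lower. At an unadjusted p under 0.05 there were 10 of the 40 genes, 4 higher and 6 lower with VIP, against 16.7% of all genes. The gene that rose was Tnfaip8, a TNF-induced regulator of cell survival, with 0.21, 0.59, -0.26, 0.45, 0.05 and 0.88 on replicates 1 to 6. These ratios still hold its fitted dye effect of -0.32, and the lowest were those with VIP in Cy5 (replicates 1, 3 and 5). Its fitted value was 0.32 ± 0.069 (SE, n = 6, adjusted p = 0.035 by limma), and no gene of the list was called without replicate 1, 2, 5 or 6. Nfkbia, the inhibitor that NF-kappaB itself induces, and Tnfaip3, a ubiquitin-editing brake on TNF signalling, came next and are named here after their values were seen. Nfkbia stood at -0.31 ± 0.076 (SE, n = 6, adjusted p = 0.0562 by limma), below 0 on 6 of 6 arrays. Its log2 ratio was -0.85 on replicate 6 and between -0.28 and -0.10 on the other arrays. Tnfaip3 stood at 0.24 ± 0.058 (SE, n = 4, adjusted p = 0.0705 by limma), above 0 on the 4 arrays that measured it. Replicates 3 and 6, whose samples differed in sex-linked transcripts, lacked a value for it.

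**Figure D5:**
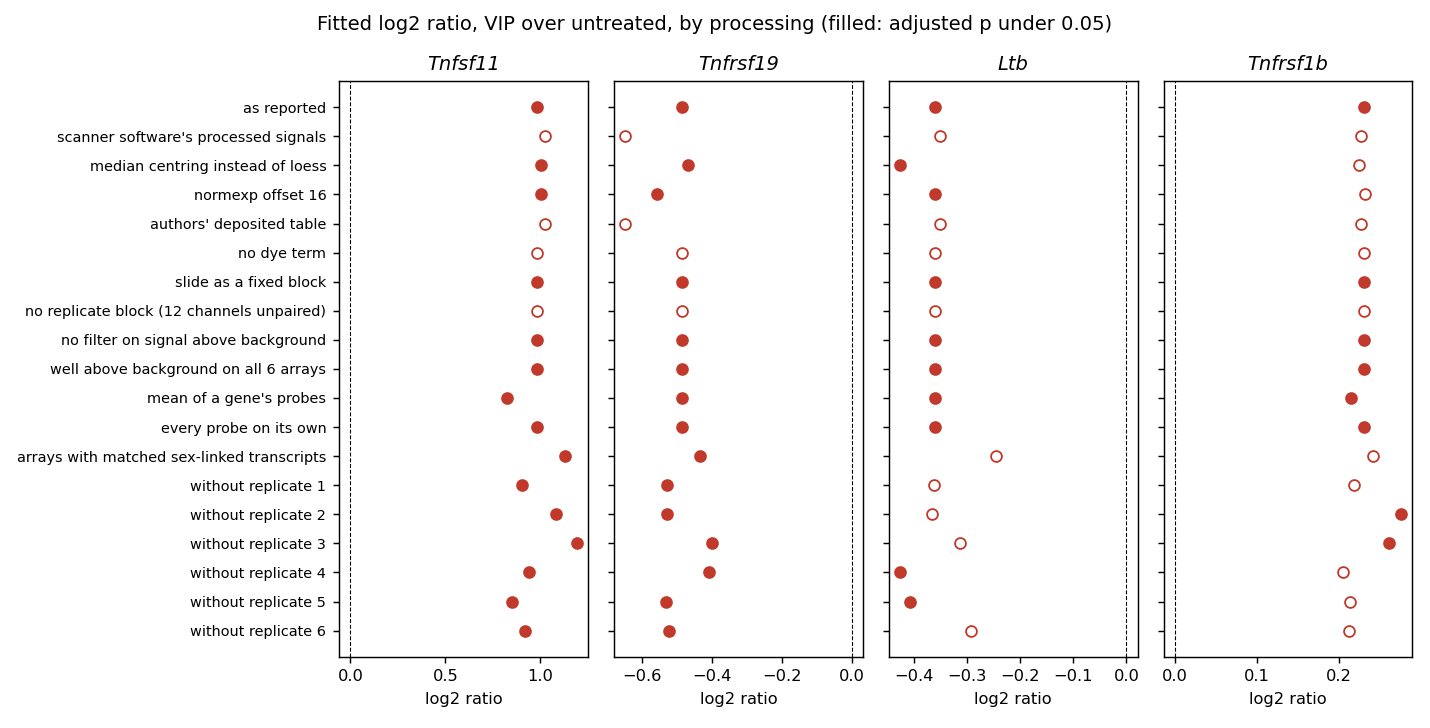
Fitted log2 ratio of VIP over untreated for the 4 called genes as reported and under each alternative to the processing, filled where the adjusted p was under 0.05. No value crosses 0, and the calls of Tnfsf11 and Tnfrsf19 hold whichever array is left out, while those of Ltb and Tnfrsf1b are each lost without 4 of the 6 arrays in turn.

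The plot of settings sets the 4 called genes side by side. Each of the 12 genes described array by array kept its sign under each of 18 alternatives, 216 values in all, although Fas came to 0.0042 with the mean of its probes. Many of these values could not change sign. For a gene measured on every array, no dye term, slide as a block and unpaired channels leave the fitted value as it is. So do other filters and single probes where the same probe is used. The authors' table holds nearly the same values as the processed signals. The other members and the downstream genes were not followed one by one. Among the 216 values 28 lost a call and 2, both of Tnfrsf18, gained one. Both gains came from fits in which replicate 4 was the only Tnfrsf18 array with VIP in Cy3.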

How the data were processed

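Spot intensity values were deposited as written by Agilent Feature Extraction 9.5.1.1, for 60-base probes placed on mm9 (NCBI37), per the file headers. Exon and UTR annotation was not used here. The authors also deposited a table of log10 ratios, equal to the scanner tables' log10 ratio turned to VIP over untreated (largest difference 4.77e-06), with array medians of 0 and 10.8% to 22.7% of spots at exactly 0. It served as an alternative.

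Mean signal and median local background were corrected with normexp (offset 50), control and outlier spots were left out, and arrays were normalized by loess in limma 3.58.1 (R 4.3.3). Levels are log2 channel values from the deposited intensity values after loess and Aquantile. Replicate spots were averaged. Probes needed a signal well above background on 3 or more of the 6 arrays in either treatment, and usable spots on 2 or more arrays per dye orientation, which left 27454. The brightest probe stood for its gene. RefSeq accessions updated the names of 24844 of 41174 probes, and members kept the file's name.

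The log2 ratio was fitted with a probe-specific dye term in limma's lmFit and eBayes (2-sided, 4 residual and 6.54 prior degrees of freedom). Both samples of a replicate number share an array, so the fit is paired within arrays by design. The p-values rest on each gene's spread between these 6 pairs, drawn towards a variance estimated over all genes. The number of arrays limits the precision. Median signal was 83.6 to 108 in Cy3 and 148 to 235 in Cy5, and 1.93% to 8.96% of spots were outliers. The fit was tested on simulated data.

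Alternatives were processed signals, median centring, offset 16, the authors' table, no dye term, slide as a block, 12 unpaired channels, other filters, other ways to join probes, arrays with matched sex-linked transcripts, and each array left out. Genes named in full are the called ones and others of unadjusted p under 0.05, up to 12 by lowest p, and from the downstream list every called gene. The members and lists were chosen with earlier results of these data known.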

Additional observations from a re-analysis of the deposited data

How the results depend on the processing

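None of the 12 genes described array by array changed sign under any alternative, though several alternatives leave the fitted value as it is. The other members were not followed one by one. Of the member genes, 2 were called higher as reported, 0 with the processed signals, the authors' deposited table, no dye term or no replicate block (the 12 channels unpaired, which ignores the pairing within arrays), 1 with median centring or a normexp offset of 16, and 1 to 2 with an array left out. Of the member genes, 2 were called lower as reported, 0 with the processed signals, the authors' deposited table, no dye term or no replicate block, 1 on the 4 arrays matched for sex-linked transcripts, and 1 to 2 with an array left out. Of the downstream list, 1 gene was called as reported, 0 with the processed signals, an offset of 16, the authors' deposited table, no dye term or no replicate block, 2 with slide as a block or no filter on background, and 0 to 2 with an array left out. The share called among all genes is given here for the fit as reported only. Calls lost among these genes under an alternative therefore cannot be told apart from calls lost over all genes. The members' median log2 ratio stayed between -0.0024 and 0.01 under the other alternatives and between -0.0071 and 0.02 with an array left out, on either side of 0. It was below 0 with an offset of 16 (-0.0019), with no filter on background (-0.0024) and without replicate 3 (-0.0071), 5 or 6. With the mean of a gene's probes Fas came to 0.0042 and Tnfrsf11a to -0.10, neither called. Without the replicate block all 12 genes described array by array had an adjusted p of 1 by limma. Why the processed signals gave fewer calls was not tested. Near-background probes, such as those of Tnfrsf11b, Tnfrsf17, Tnfrsf21, Tnfrsf8 and Eda2r, limit what these arrays can resolve.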

Other observations

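Some member probes were bright enough to measure but lacked enough usable spots for the fit. A second Tnfrsf25 probe passed the background filter in both treatments, and after outlier spots were left out its log2 ratio of VIP over untreated was -0.17, 0.13, -0.05 and -0.13 on replicates 1, 3, 4 and 5. The joint transcript Tnfsf12-tnfsf13, whose accession RefSeq lists as Tnfsfm13, gave 0.21, -0.29 and 0.21 on replicates 1, 4 and 6. A second probe of Tnfsf13b was measured on replicate 1 alone, at 0.05.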
